A study of Homo sapiens with 16 samples.

Results

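The splicing factor families examined here were 78 of the 10566 genes with enough counts to be tested in spheroids of 3 prostate cancer cell lines. They were defined by a pattern of names, chosen with earlier results of these data known. The families were the heterogeneous nuclear ribonucleoproteins (HNRNP), the serine and arginine rich splicing factors (SRSF) and the small nuclear ribonucleoprotein polypeptides (SNRP). With them were the SF3A and SF3B subunits, U2AF, the pre-mRNA processing factors (PRPF) and the LSM proteins. Of the 78, 75 were protein-coding: 19 HNRNP, 11 SRSF, 12 SNRP, 9 SF3, 2 U2AF, 12 PRPF and 10 LSM genes. The other 3, HNRNPCP2, HNRNPKP2 and HNRNPUP1, are pseudogenes whose names fit the same pattern, and they were kept in the counts over 78 but out of the family counts. A further 33 genes with matching names had too few counts to be tested, among them 7 protein-coding genes (HNRNPCL1, HNRNPCL2, HNRNPCL3, HNRNPCL4, LSM11, SRSF12 and PRPF18), and 18 of the 33 had no count in any library. Related genes whose names fall outside the pattern, such as HNRNPA2B1 and SNRNP70, were not members.

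Spheroids were grown from LNCaP, 22Rv1 and PC3 cells. LNCaP is an androgen-dependent line that responds to the antiandrogen enzalutamide, 22Rv1 responds to androgen but resists enzalutamide, and PC3 does not respond to the drug. Cells of each line had received 25 pmol of siRNA against MED12, a subunit of the Mediator complex (siMED12), or of control siRNA (siCtrl), 3 days before spheroids were formed, and were collected after 4 more days. RNA was sequenced from the 3′ ends of transcripts in 3 siCtrl libraries of each line, 3 siMED12 libraries of LNCaP, and 2 siMED12 libraries, replicates 1 and 3, of each of 22Rv1 and PC3. Each group is cells of 1 established line, so a difference between lines is a difference between 3 particular lines.

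Removal of introns is carried out by the spliceosome, which is built on each transcript from small nuclear ribonucleoprotein particles (snRNPs). The SNRP genes encode the Sm proteins that form a ring on most snRNAs and the proteins particular to the U1 and U2 particles. U1 recognises the start of the intron, U2AF its end, and the SF3A and SF3B complexes hold the U2 particle at the branch point. Many PRPF proteins belong to the tri-snRNP of U4, U6 and U5, in which the LSM2 to LSM8 proteins form a ring on U6. SR proteins and HNRNP proteins bind the transcript itself and respectively favour or oppose the use of nearby splice sites in many, but not all, cases.

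Totals were 479118 to 993807 counts per library, and the 78 members held 1.21% to 1.53% of them. The labelled lines were checked against marker genes. KLK3, which encodes prostate-specific antigen, had 1154 to 2323 counts in the LNCaP libraries, 8 to 21 in 22Rv1 and 5 to 28 in PC3, and PLAU, a protease high in PC3, had 1689 to 4630 counts in PC3 and 8 to 116 in the other lines. 2 libraries stood apart. In 22Rv1 siMED12 replicate 3 the summed level of 7 genes high in PC3 (CAV1, CAV2, CD44, AXL, VIM, TGFBI and PLAU) was 6.07% of that in PC3 siCtrl, against 1.03% to 2.95% in the other LNCaP and 22Rv1 libraries. In PC3 siMED12 replicate 3 KLK3 had 28 counts and KLK2, its neighbour and relative, 22, against 5 to 13 and 3 to 13 in the other PC3 libraries. Their part in the results was not tested beyond leaving both out, which left only siMED12 replicate 1 in 22Rv1 and in PC3. MED12 itself was lower in siMED12 by 0.50 ± 0.46 on the log2 scale in LNCaP (fold change ± SE; adjusted p = 0.878), by 1.28 ± 0.46 in 22Rv1 (adjusted p = 0.175) and by 0.22 ± 0.43 in PC3 (adjusted p = 0.987). It had only 5 to 22 counts per library, and the difference passed the test in no line. Its siMED12 and siCtrl libraries overlapped in LNCaP and PC3 and were apart in 22Rv1. The study described the MED12 knockdown in spheroids as highly efficient, from a supplementary figure not used here.

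Levels are given in CPM, the counts of a gene scaled to the size of its library. Tags come from the 3′ end and are not scaled by transcript length. Priming can differ between genes, and whether duplicate tags were collapsed is not stated, so an order of levels between genes is approximate. In bulk RNA, fewer cells expressing a gene and less RNA per cell cannot be told apart.

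The members were abundant. Their median siCtrl level over the lines was 113 CPM, against 30.1 CPM for all tested genes, and 6 exceeded 500 CPM while 3 lay below 20 CPM. The HNRNP family made up 39.4% of the summed level of the members and the SRSF family 18.6%. Within the HNRNP family the highest was HNRNPA1, an abundant RNA-binding protein that antagonises SR proteins, at 942 CPM, and the lowest HNRNPUL2 at 31.5 CPM. SRSF9 led the SR proteins at 825 CPM, and SRSF1, the founding SR protein, was the lowest at 46.3 CPM. HNRNPUL2 shares exon sequence with HNRNPUL2-BSCL2 and SRSF1 with ENSG00000266086, on the same strand. SRSF9 shares some with NRAV. How reads in shared exons were counted is not stated, so these low levels are uncertain.

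The median level of the SNRP genes was 171 CPM, between those of the HNRNP genes (219 CPM) and the SRSF genes (152 CPM). Medians of the other families were lower: 104 CPM for U2AF, 82.4 CPM for LSM, 79.8 CPM for SF3 and 47.5 CPM for PRPF. SNRPB, which encodes the SmB protein, led the SNRP family at 404 CPM, and SNRPD3, another protein of the Sm ring, was its lowest at 21.6 CPM. SNRPD3 shares exon sequence with ENSG00000286070 on the same strand, and SNRPB with ENSG00000256566. How such reads were counted is not stated. SF3B6, which contacts the branch point, led the SF3 genes at 339 CPM, and SF3A2 was the lowest at 22.3 CPM. U2AF1 stood at 114 CPM and its partner U2AF2 at 94.2 CPM. PRPF8, the large scaffold of the catalytic centre, led the PRPF family at 139 CPM, with PRPF40B, a U1-associated protein, the lowest at 16.7 CPM. LSM4 led the LSM family at 564 CPM, and LSM1, which with LSM2 to LSM7 acts in mRNA decay in the cytoplasm, was the lowest at 57.4 CPM.

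Summed by family, the SNRP genes gave 1764 ± 105 CPM in LNCaP siCtrl (SD, n = 3), 2343 ± 129 CPM in 22Rv1 and 2214 ± 188 CPM in PC3, and every LNCaP library lay below every library of both other lines. The HNRNP sum was 6113 ± 219 CPM in 22Rv1, above every PC3 library, where it was 5177 ± 196 CPM. The SF3 sum ran the other way, at 1400 ± 19.97 CPM in 22Rv1 and 1630 ± 68.3 CPM in PC3. The PRPF sum was 735 ± 26.1 CPM in LNCaP and 617 ± 8.59 CPM in 22Rv1.

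**Figure D1:**
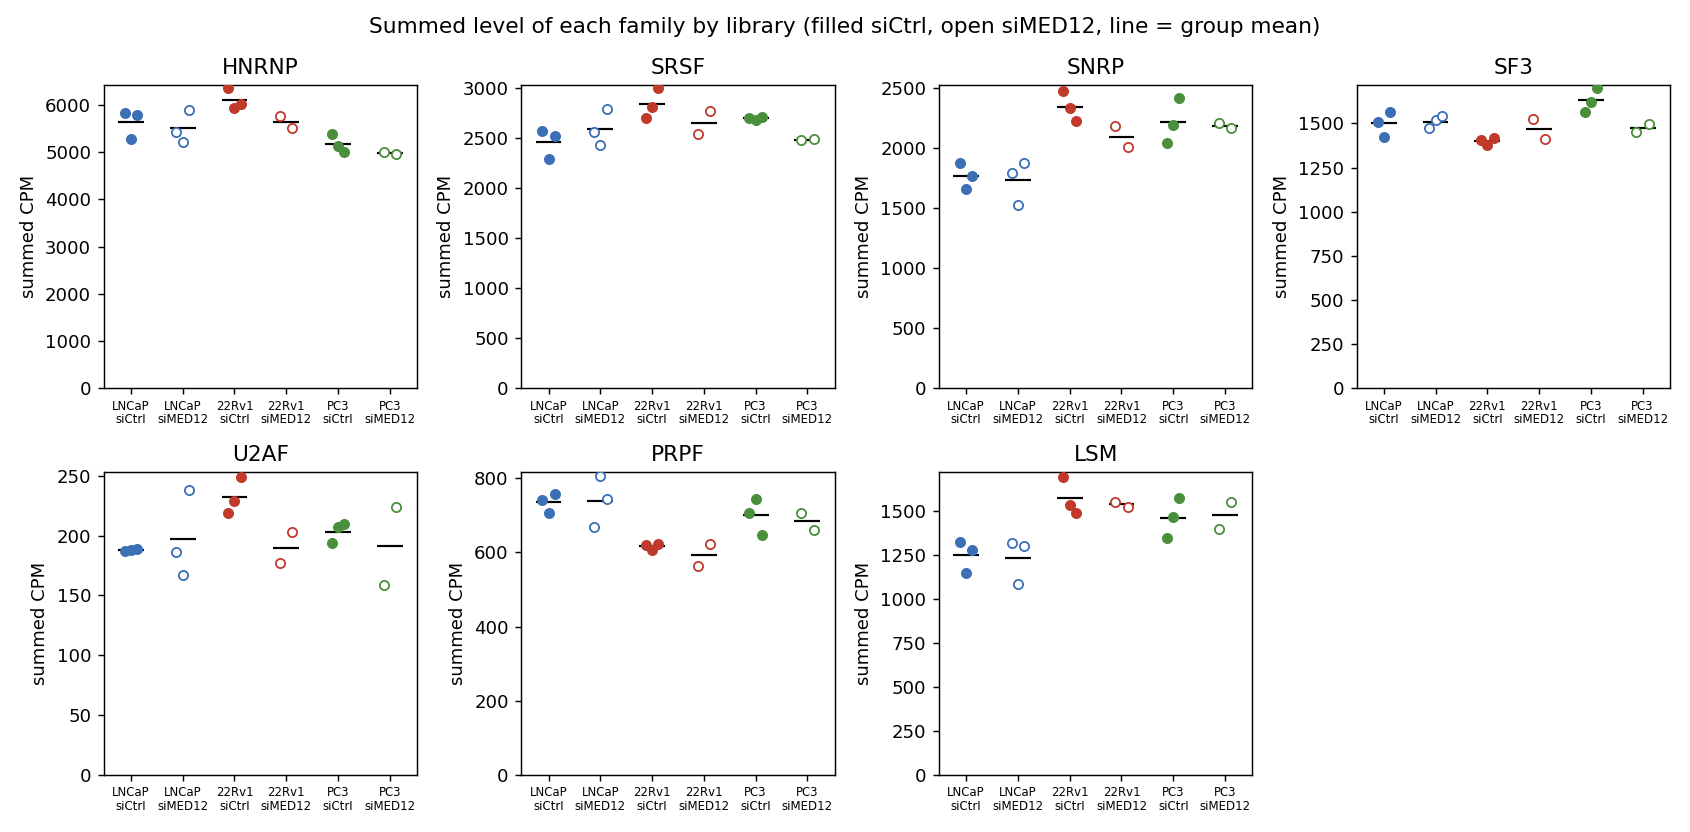
Summed CPM of the protein-coding members of each family in every library, by line and treatment; filled points are siCtrl, open points siMED12, and lines are group means. The SNRP sum of LNCaP siCtrl (1764 CPM on average) lies below those of 22Rv1 (2343) and PC3 (2214), and the siMED12 points lie below all siCtrl points of the line for HNRNP, SNRP and U2AF in 22Rv1 and for HNRNP, SRSF and SF3 in PC3; these sums were not tested.

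The first comparison asked how the level of each member differed between the lines without MED12 knockdown. Between 22Rv1 and LNCaP, 39 of the 78 members passed the test, against 43.2% of all tested genes. Of these, 28 were higher in 22Rv1 (22% of all genes were) and 11 lower (21.2% of all genes). Between PC3 and LNCaP, 32 members passed, against 54.7% of all genes, 20 of them higher in PC3 (29.2% of all genes) and 12 lower (25.5%). Between PC3 and 22Rv1, 33 passed, against 54.9% of all genes, with 13 higher in PC3 (28.7%) and 20 lower (26.1%). In all, 56 of the 78 members (71.8%) passed in at least 1 of these comparisons, which share libraries, against 76.4% of all genes. In percent of the 78 members, 50 passed between 22Rv1 and LNCaP, 41 between PC3 and LNCaP and 42.3 between PC3 and 22Rv1, the first above and the others below the share of all genes.

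**Figure D2:**
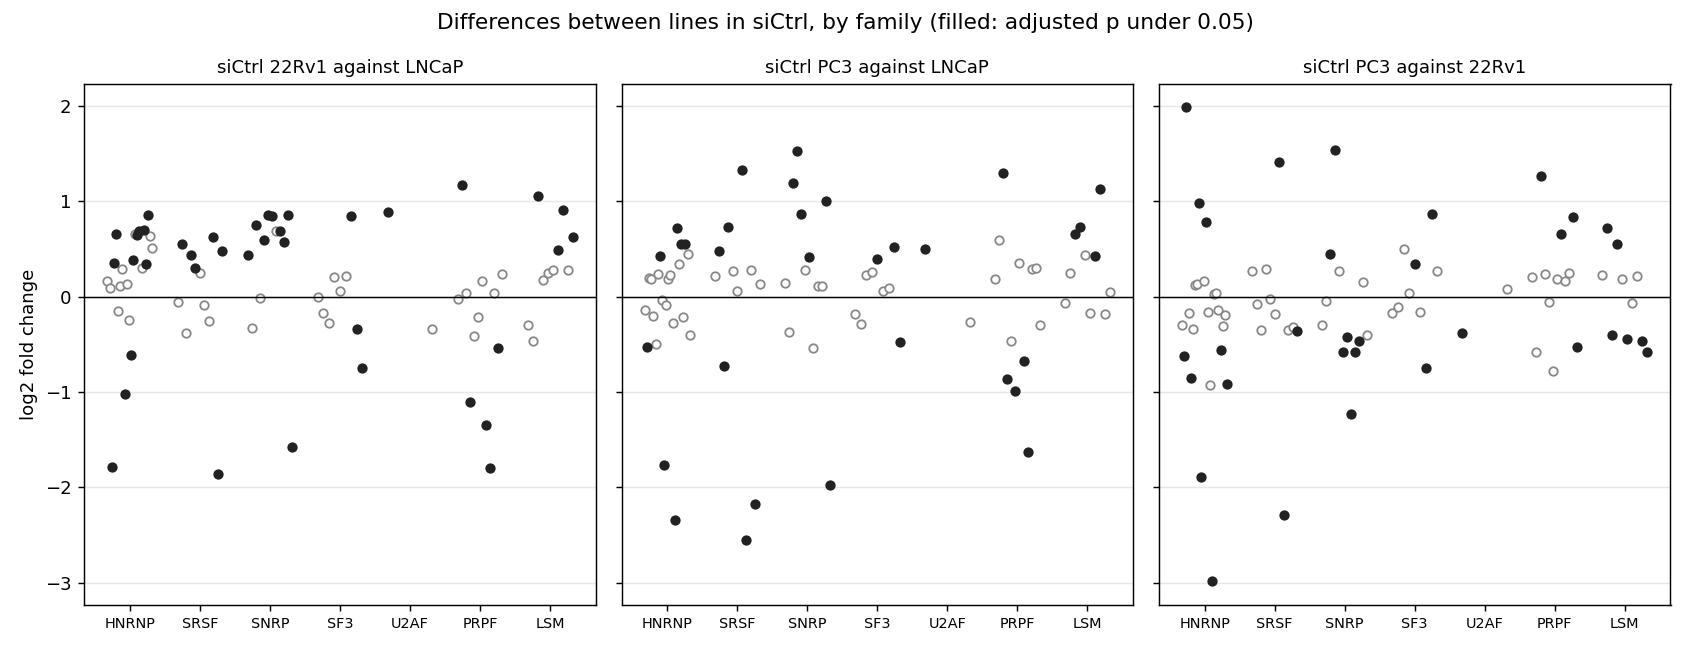
Log2 fold change of every member between the siCtrl groups of 2 lines, by family, with the 3 pseudogenes among the HNRNP points; each point is a gene, filled where its adjusted p was under 0.05. The SNRP genes lie mostly above 0 in 22Rv1 against LNCaP, and HNRNPL (-2.98) is the lowest point of PC3 against 22Rv1.

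A stricter description asked for members whose 3 siCtrl libraries of one line lay all above or all below the 6 of the others. LNCaP stood below for 17 members (12.3% of all genes did) and above for 7 (14% of all genes). 22Rv1 stood above for 18 (13.8%) and below for 6 (11.8%). PC3 stood above for 10 (20.8%) and below for 6 (15.4%). In percent of the 78 members these were 21.8 and 8.97 for LNCaP, 23.1 and 7.69 for 22Rv1, and 12.8 and 7.69 for PC3. Over the lines and directions, 48 members (61.5%) had such a line, against 67.9% of all genes. No test of these shares was made.

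The largest differences belonged to HNRNPL and SRSF6, both lowest in PC3. HNRNPL (ENSG00000104824, chromosome 19, 38836370 to 38852347 on the minus strand of GRCh38), which binds CA-rich RNA, was at 46.4, 42.1 and 36.1 CPM in PC3 siCtrl. It was at 199, 211 and 224 CPM in LNCaP and at 345, 354 and 296 CPM in 22Rv1. No PC3 library came near those of the other lines, and the log2 fold change was -2.34 ± 0.18 against LNCaP (adjusted p = 1.27e-12) and -2.98 ± 0.17 against 22Rv1 (adjusted p = 1.52e-15). The 2 siMED12 libraries of PC3 had 38.2 and 33.2 CPM, so HNRNPL was low in all 5 PC3 libraries. 22Rv1 also exceeded LNCaP, by 0.65 ± 0.14 (adjusted p = 0.000367). The siCtrl order was 22Rv1, LNCaP, PC3.

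SRSF6 (ENSG00000124193, chromosome 20, 43457893 to 43466046, plus strand), an SR protein, was likewise lowest in PC3. Its levels were 38.7, 30.5 and 49.1 CPM in PC3 siCtrl, 232, 196 and 251 CPM in LNCaP, and 185, 189 and 198 CPM in 22Rv1. PC3 was lower by 2.55 ± 0.18 (log2) than LNCaP (adjusted p = 2.38e-13) and by 2.29 ± 0.19 than 22Rv1 (adjusted p = 5.16e-12). The difference of 22Rv1 from LNCaP was -0.26 ± 0.15 (adjusted p = 0.17). HNRNPH1 (ENSG00000169045, chromosome 5, 179614178 to 179634784, minus strand), which binds runs of G, was at 86.4, 109 and 150 CPM in PC3 against 393, 368 and 404 CPM in LNCaP and 413, 428 and 438 CPM in 22Rv1. The PC3 difference was -1.76 ± 0.15 from LNCaP (adjusted p = 1.16e-11) and -1.89 ± 0.15 from 22Rv1 (adjusted p = 2.2e-12).

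HNRNPA1 also stood below both other lines in PC3, although less so, at 710 ± 65.8 CPM against 1026 ± 66.0 CPM in LNCaP and 1090 ± 64.9 CPM in 22Rv1. Its log2 differences were -0.53 ± 0.11 from LNCaP (adjusted p = 0.000227) and -0.62 ± 0.11 from 22Rv1 (adjusted p = 3.11e-05). It has 74 pseudogenes in the annotation, which held 13.2% as many counts as the gene. With those added, the levels were 1173 ± 73.2 CPM in LNCaP, 1226 ± 84.0 CPM in 22Rv1 and 795 ± 82.8 CPM in PC3, and every PC3 library still lay below those of the other lines.

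Other members were highest in PC3. SNRPB2 (ENSG00000125870, chromosome 20, 16729961 to 16742564, plus strand), which encodes the U2 B′′ protein, was at 144, 161 and 160 CPM in PC3. It was at 61.3, 50.1 and 50.9 CPM in LNCaP and at 65.1, 60.2 and 35.9 CPM in 22Rv1. The log2 difference was 1.53 ± 0.20 from LNCaP (adjusted p = 7.76e-08) and 1.54 ± 0.20 from 22Rv1 (adjusted p = 8.29e-08), and LNCaP and 22Rv1 overlapped. SRSF5, another SR protein, stood at 404 ± 81.1 CPM in PC3, 160 ± 24.7 CPM in LNCaP and 151 ± 22.5 CPM in 22Rv1 (log2 difference 1.33 ± 0.16 from LNCaP, 1.42 ± 0.16 from 22Rv1). PRPF31, which bridges the tri-snRNP parts, stood at 101 ± 14.4 CPM in PC3 and 40.3 ± 4.98 CPM in LNCaP, a difference of 1.30 ± 0.21. SRSF5 and SRSF6 are both SR proteins, and PC3 was the highest line for the one and the lowest for the other.

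LNCaP stood apart in other genes. SRSF8 (ENSG00000263465, chromosome 11, 95066919 to 95071225, plus strand), an SR protein close to SRSF2, was at 247, 274 and 225 CPM in LNCaP siCtrl. It was at 69.0, 75.2 and 61.6 CPM in 22Rv1 and 47.7, 55.7 and 60.7 CPM in PC3, in both cases with all libraries below LNCaP. Its log2 difference from LNCaP was -1.86 ± 0.15 in 22Rv1 (adjusted p = 1.27e-11) and -2.18 ± 0.15 in PC3 (adjusted p = 1.83e-13). The U1-associated PRPF40B was also highest in LNCaP. PRPF40B stood at 31.0 ± 2.15 CPM in LNCaP, 8.95 ± 1.17 CPM in 22Rv1 and 10.3 ± 3.48 CPM in PC3. Its log2 difference from LNCaP was -1.79 ± 0.37 in 22Rv1 (adjusted p = 0.000174) and -1.63 ± 0.35 in PC3 (adjusted p = 0.00018). FMNL3, transcribed from the opposite strand, shares exon sequence with it, and whether counting used the strand is not stated.

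22Rv1 was the lowest line for HNRNPA3 and HNRNPF. HNRNPA3 (ENSG00000170144, chromosome 2, 177212694 to 177223959, plus strand), a relative of HNRNPA1, was at 39.0, 33.4 and 34.6 CPM in 22Rv1 siCtrl. It was at 161, 97.4 and 119 CPM in LNCaP and 169, 127 and 133 CPM in PC3, and the log2 difference of 22Rv1 from LNCaP was -1.79 ± 0.23 (adjusted p = 1.57e-07). NFE2L2 overlaps it on the opposite strand and its pseudogenes held 31.0% as many counts as the gene. With pseudogenes added, 22Rv1 stood at 41.6 ± 5.06 CPM against 161 ± 35.6 CPM in LNCaP. HNRNPF, which like HNRNPH1 binds G runs, stood at 376 ± 38.3 CPM in 22Rv1, 766 ± 28.6 CPM in LNCaP and 746 ± 43.3 CPM in PC3.

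**Figure D3:**
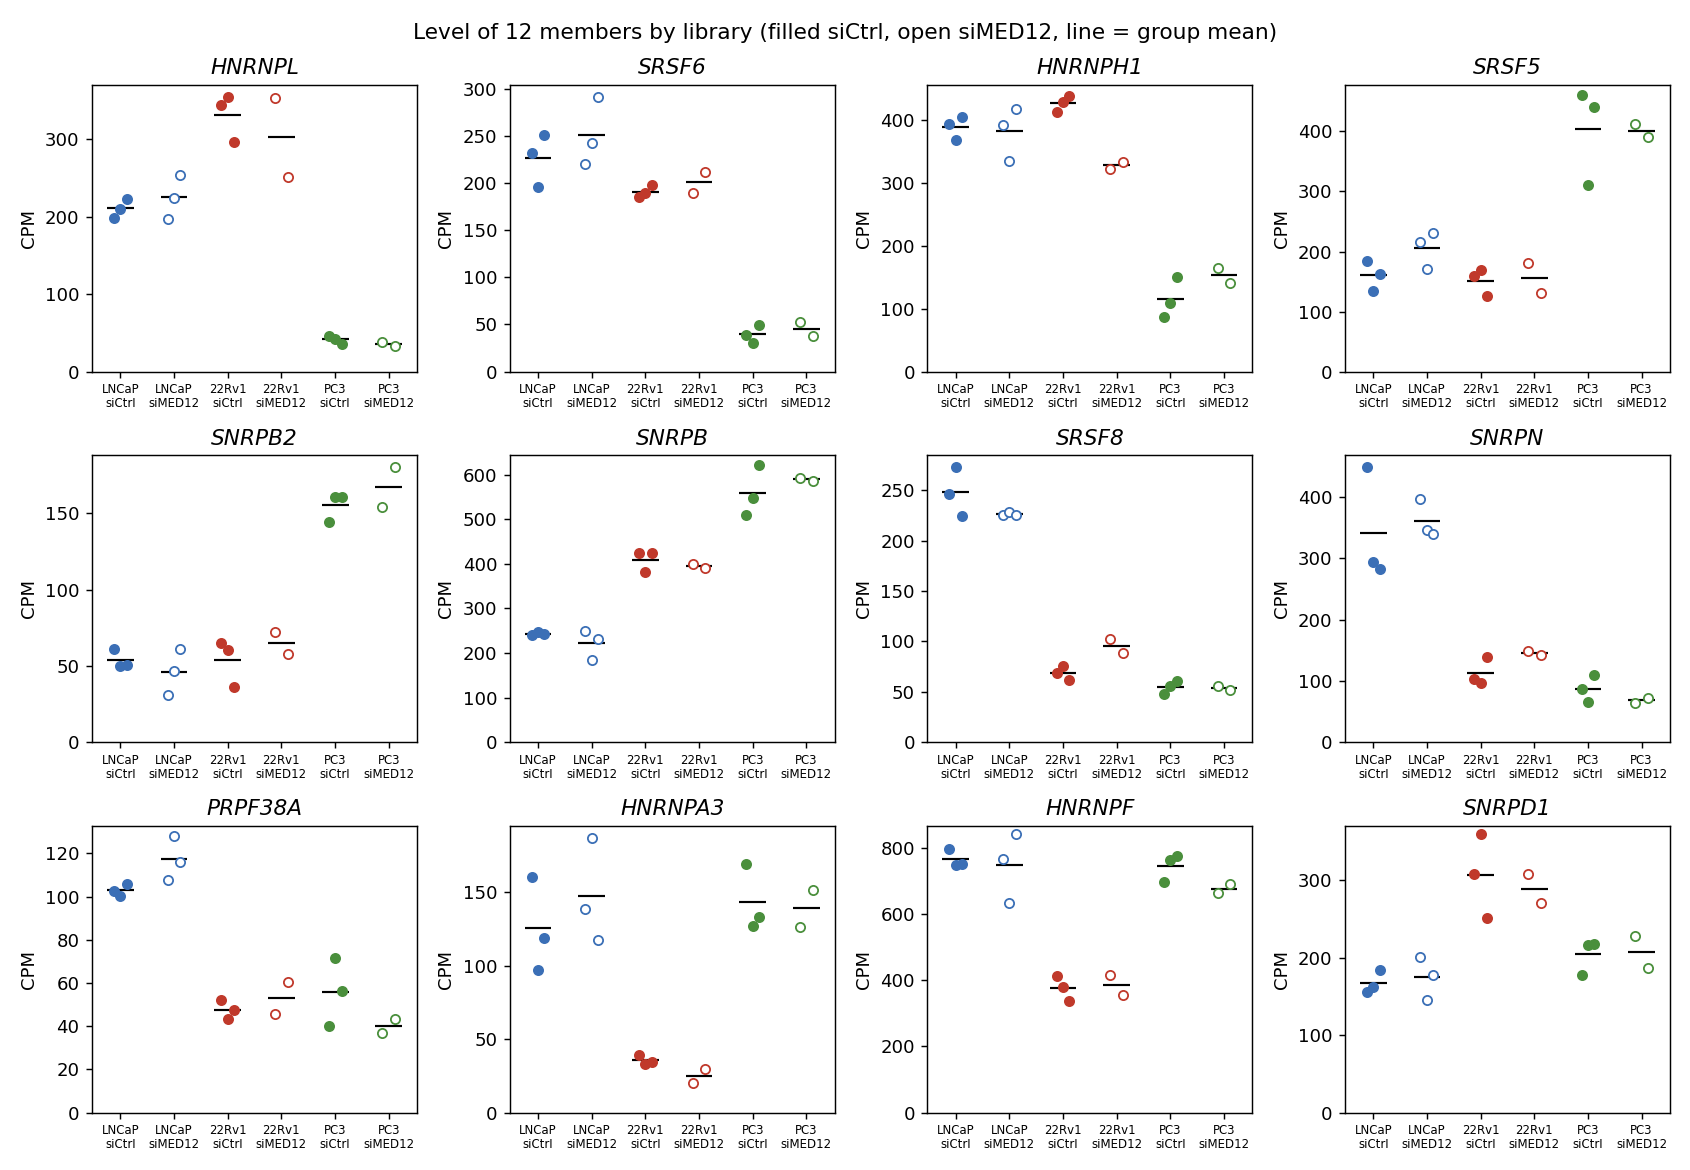
CPM of 12 members in every library; filled points are siCtrl, open points siMED12, and lines are group means, on axes that start at 0. HNRNPL and SRSF6 are low in all 5 PC3 libraries, SRSF8 is high in all 6 LNCaP libraries, and HNRNPA3 is low in all 5 22Rv1 libraries.

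All 7 genes of the Sm ring had a higher mean in 22Rv1 than in LNCaP. Of these (SNRPB, SNRPD1, SNRPD2, SNRPD3, SNRPE, SNRPF and SNRPG), 6 passed the threshold, where 22% of all genes were called higher, with a median log2 difference of 0.75, against a median of 0.00 over all tested genes. SNRPD1 stood at 306 ± 54.0 CPM in 22Rv1 and 167 ± 15.1 CPM in LNCaP, and SNRPD2 at 448 ± 47.8 and 248 ± 20.2 CPM. SNRPD3, the seventh, was at 32.1 ± 1.55 and 19.1 ± 6.11 CPM and did not pass. Between PC3 and 22Rv1, 5 of the 7 were called lower in PC3 (26.1% of all genes were) and 2 had positive differences, of which SNRPB was called higher (28.7% of all genes), at 560 ± 56.8 against 410 ± 24.7 CPM. SNRPD3 gave the largest of those differences, at -1.23 ± 0.35.

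Pseudogenes of the Sm genes took many counts: 1441 for SNRPE, which had 1439 of its own, 698 for SNRPF and 525 for SNRPG. Reads of a parent and its copies may have been split between them, so the levels of these genes are uncertain. With pseudogene counts added, SNRPE stood at 302 ± 33.0 CPM in 22Rv1 and 208 ± 7.84 CPM in LNCaP, SNRPF at 329 ± 17.9 and 222 ± 8.70 CPM, and SNRPG at 151 ± 19.2 and 77.6 ± 8.14 CPM. Each remained higher in every 22Rv1 library than in every LNCaP library.

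Of the other SNRP, LSM and PRPF genes, SNRPC, encoding the U1 C protein, was higher in 22Rv1 (0.60 ± 0.15) and in PC3 (0.87 ± 0.15) than in LNCaP. In the LSM2 to LSM8 ring, 7 of 7 had positive differences in 22Rv1 against LNCaP and 3 of them were called higher (22% of all genes were). In PC3 against LNCaP 5 were positive and 2 negative, with 3 called higher (29.2% of all genes) and none called lower. LSM6 was at 87.4 ± 12.98 CPM in 22Rv1, 101 ± 28.1 CPM in PC3 and 46.2 ± 6.48 CPM in LNCaP. LSM12, an LSM-domain protein outside that ring, had a difference of 1.06 ± 0.17 between 22Rv1 and LNCaP. PRPF3, a U4/U6 protein, had the largest positive difference in that comparison, at 1.17 ± 0.30, from 18.1 ± 4.77 CPM in LNCaP to 39.3 ± 6.56 CPM in 22Rv1. Among HNRNP genes HNRNPUL1, which shares sequence with HNRNPU, was higher in 22Rv1 by 0.86 ± 0.15, with TGFB1 overlapping it on the other strand.

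U2AF1 and several other factors fixed by name gave smaller differences. U2AF1 was higher in 22Rv1 than in LNCaP by 0.89 ± 0.17, at 139, 160 and 144 CPM against 87.8, 78.8 and 74.2 CPM. In PC3 it was higher than in LNCaP by 0.50 ± 0.17 (adjusted p = 0.013), but the call was lost without LNCaP siCtrl replicate 3 (0.40) or PC3 siCtrl replicate 2 (0.45), where adjusted p reached 0.0987. U2AF1 was lower in PC3 than in 22Rv1 by 0.38 ± 0.16 (adjusted p = 0.0402), and this call was lost without 22Rv1 siCtrl replicate 2 (-0.33) or PC3 siCtrl replicate 1 (-0.33) or 3 (-0.41), with DESeq2 (-0.37), with all genes that had a count (-0.38) and with at least 10 counts in every library (-0.34). SF3B2 was higher in PC3 than in LNCaP by 0.40 ± 0.12 and than in 22Rv1 by 0.34 ± 0.12 (adjusted p = 0.017), the second of which was lost without 22Rv1 siCtrl replicate 1 (0.30) or 2 (0.27) or PC3 siCtrl replicate 2 (0.29) or 3 (0.32). SRSF1, SF3B1 and U2AF2 passed in no comparison of lines. SRSF1 stood at 44.7 ± 3.08 CPM in LNCaP, 42.8 ± 11.9 CPM in 22Rv1 and 51.5 ± 8.88 CPM in PC3, and SF3B1, the branch-point subunit often mutated in cancer, at 60.3 ± 8.48, 69.2 ± 2.51 and 72.1 ± 9.03 CPM. PRPF8 was lower in PC3 than in 22Rv1 by 0.53 ± 0.18 (adjusted p = 0.0116), a call lost without 22Rv1 siCtrl replicate 3 (-0.37). The pseudogene HNRNPUP1 was lower in PC3 than in 22Rv1 by 0.92 ± 0.32, at 17.5 ± 7.73 against 33.7 ± 8.64 CPM, and not past the threshold without 22Rv1 siCtrl replicate 3 (-0.77) or PC3 siCtrl replicate 3 (-0.65), or with DESeq2 (-0.92). KHDRBS1, an RNA-binding protein outside the families that was fixed by name with them, was lower in PC3 by 0.54 ± 0.14 than in 22Rv1.

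Related genes took different shares in different lines. SNRPN, an imprinted gene on chromosome 15 (24823637 to 24978723, plus strand), encodes SmN, a protein nearly identical to SmB. It was at 449, 294 and 283 CPM in LNCaP siCtrl, 103, 96.9 and 139 CPM in 22Rv1, and 86.4, 66.2 and 110 CPM in PC3, and differed from LNCaP by -1.57 ± 0.18 in 22Rv1 (adjusted p = 1.15e-08) and by -1.97 ± 0.18 in PC3 (adjusted p = 7.3e-11). SNRPB ran the other way. SNRPN therefore held 57.7% ± 6.42 of the counts of the pair in LNCaP (SD, n = 3), 21.5% ± 2.78 in 22Rv1 and 13.4% ± 2.31 in PC3. The lowest LNCaP library had 53.8%, and the highest library of the other lines had 24.7%. SNURF and SNHG14, on the same strand, share exon sequence with SNRPN and had 56 and 367 counts, against 2370 for SNRPN. ENSG00000214265 and ENSG00000286110, also on that strand, share some and had 0 and 6 counts. How reads there were assigned is not stated.

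The shares of HNRNPLL and HNRNPL differed in PC3. HNRNPLL, the relative of HNRNPL known from T cells, was at 49.2 ± 8.93 CPM in PC3, 48.3 ± 9.22 CPM in 22Rv1 and 29.8 ± 2.96 CPM in LNCaP. It held 54.0% ± 6.998 of the counts of the pair in PC3 siCtrl, 12.4% ± 1.70 in LNCaP and 12.6% ± 1.17 in 22Rv1, and 58.1% ± 9.04 in the 2 siMED12 libraries of PC3. HNRNPH2, the relative of HNRNPH1, stood at 124 ± 21.0 CPM in PC3 and 130 ± 16.9 CPM in LNCaP. Its share of that pair was 52.1% ± 11.0 in PC3, 25.1% ± 1.67 in LNCaP and 20.6% ± 2.02 in 22Rv1.

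**Figure D4:**
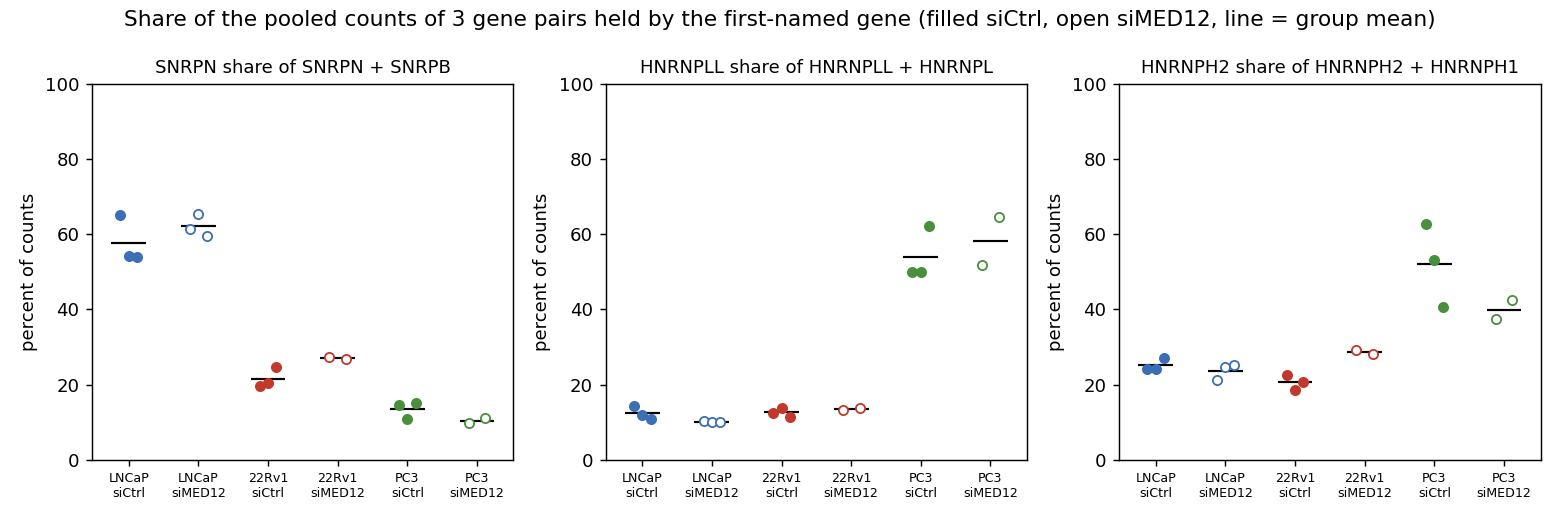
Share of the pooled counts of 3 pairs held by SNRPN (with SNRPB), HNRNPLL (with HNRNPL) and HNRNPH2 (with HNRNPH1), in percent, by library; filled points are siCtrl, open points siMED12, lines group means. SNRPN holds over 50% in LNCaP only, and HNRNPLL at least 50% in PC3 only.

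The siMED12 libraries entered the comparisons between siCtrl groups only through the filter, the scaling and the estimate of spread. They come from the same lines and share replicate numbers with the siCtrl libraries, so they are not an independent reading. Of the 39 members called between 22Rv1 and LNCaP, 36 differed in the same direction between the siMED12 groups of these lines, the exceptions being HNRNPAB, SRSF3 and SRSF2. Of the 32 called between PC3 and LNCaP, 31 did, with U2AF1 the exception, and of the 33 called between PC3 and 22Rv1, 31 did, with PRPF8 and LSM7 as exceptions. Over all genes called in these comparisons the shares in the same direction were 96.7%, 97.9% and 96.8%.

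The second comparison asked whether MED12 knockdown changed the members. In the fit without a replicate block none of the 78 passed the threshold in any line. The replicate numbers were taken to pair the libraries. A fit with the number as a block called 1 member in 22Rv1, SNRPC (adjusted p = 0.0188), and 1 for the mean of the lines, HNRNPH3 (adjusted p = 0.0275). In LNCaP and PC3 it called 0. Of all genes it called 1.11% in LNCaP, 2.95% in 22Rv1, 0.189% in PC3 and 0.937% for the mean. Unless the block is named, effects and intervals below come from the fit without it, which ignores the pairing. Without the block, 0 members in LNCaP were called, against 0.416% of all tested genes, in 22Rv1 0 against 1.84%, and in PC3 0 against 0% of all genes. For the mean of the 3 effects 0 members were called, against 0.265% of all genes. The smallest adjusted p of a member was 0.386 in LNCaP, 0.124 in 22Rv1, 0.891 in PC3 and 0.216 for the mean. At an unadjusted p under 0.05, edgeR gave 4 members in LNCaP, 6 in 22Rv1, 6 in PC3 and 6 for the mean, and the other tools run, limma and DESeq2, also called 0 at the adjusted threshold. Leaving out both 22Rv1 siMED12 replicate 3 and PC3 siMED12 replicate 3 left only siMED12 replicate 1 in each of these lines. A count of calls from that fit cannot show what the 2 libraries contributed, so only effect sizes are given from it.

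In the fit without the block, the precision of the effects bounds what could have been missed. In LNCaP 50 of the 78 members had a 95% interval of the effect wholly within a 1.5-fold change in either direction. In 22Rv1 36 did and in PC3 41. These were 64.1%, 46.2% and 52.6% of the members, against 27.1%, 18.4% and 20.3% of all tested genes. Within a 2-fold change lay 73, 70 and 69, or 93.6%, 89.7% and 88.5%, against 63.4%, 53.4% and 55.2% of all genes. For the mean of the lines 71 members lay within 1.5-fold, or 91.0%, against 51.1% of all tested genes. The widest intervals included those of the scarce members PRPF39, SF3A2 and SNRPD3.

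**Figure D5:**
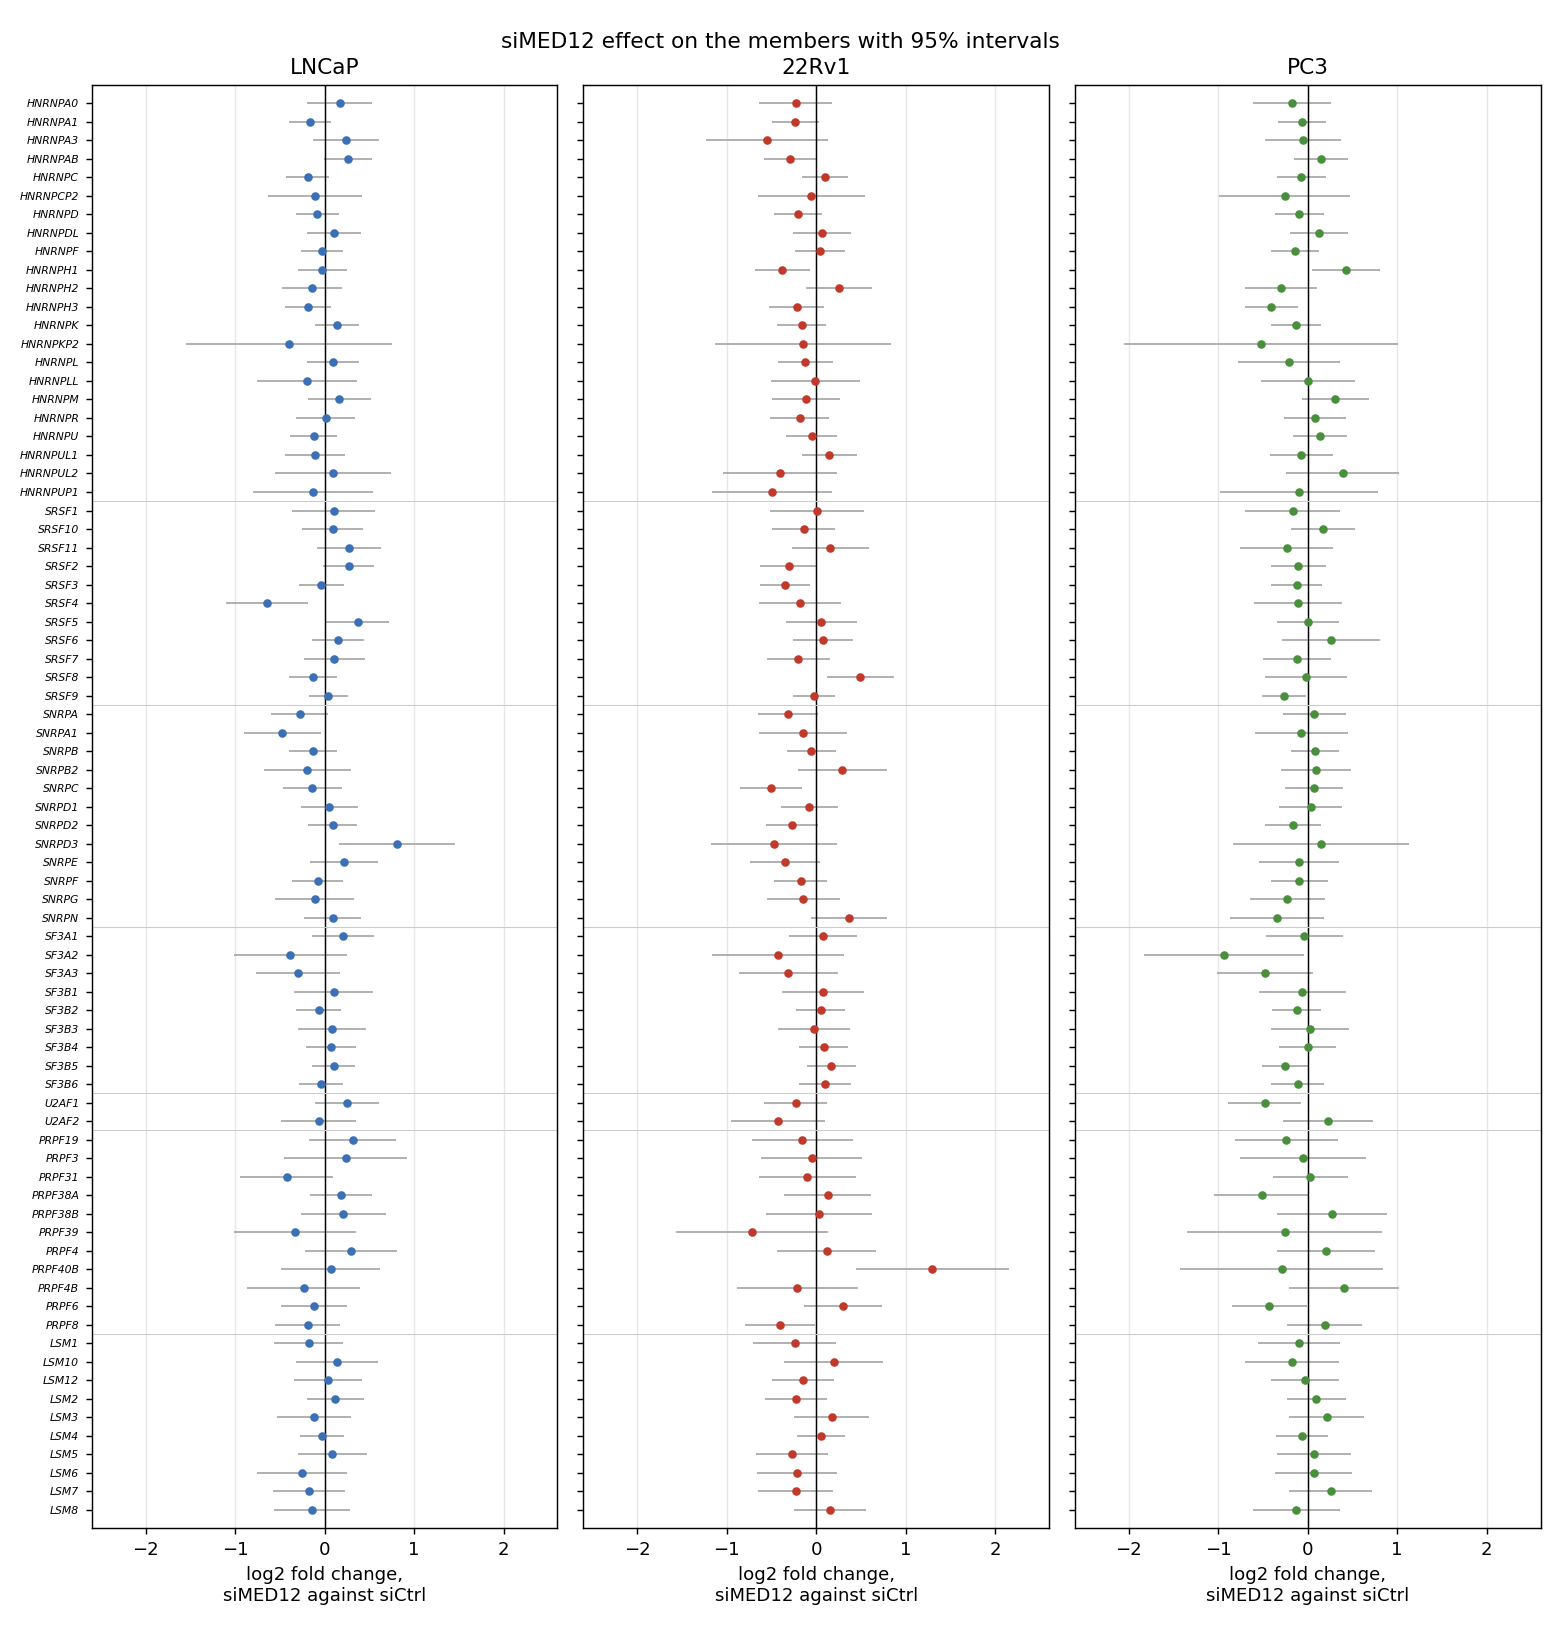
Log2 fold change of siMED12 against siCtrl for the members, 1 of them left out, with its 95% interval, in LNCaP, 22Rv1 and PC3; grey horizontal rules separate the families. Most intervals include 0, and PRPF40B in 22Rv1 (1.30) and SF3A2 in PC3 (-0.93) are the points farthest from it.

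The median log2 effect was -0.03 in LNCaP, -0.13 in 22Rv1 and -0.07 in PC3, beside medians over all tested genes of -0.00, 0.01 and -0.04. The median of the members varied between replicates with an SD of 0.052. In 22Rv1 50 of 78 (64.1%) were lower in siMED12, against 48.7% of all genes, in PC3 48 (61.5%) against 55.6%, and in LNCaP 40 (51.3%) against 50.4%. When counted over genes averaging 50 CPM or more, the share lower was 51.6% in 22Rv1, 66.4% in PC3 and 54.7% in LNCaP, beside 62.5%, 62.5% and 51.6% of the 64 members at such levels. Members whose siMED12 libraries lay all on one side of the siCtrl libraries numbered 9 in LNCaP (12.6% of all genes), 22 in 22Rv1 (26.6%) and 13 in PC3 (20.7%). By family, 22Rv1 had 14 of 19 HNRNP genes and 10 of 12 SNRP genes lower (medians -0.16 and -0.16), all 7 genes of the Sm ring among the SNRP genes that were lower, and 6 of 9 SF3 genes higher (median 0.08). In PC3 9 of 11 SRSF genes and 7 of 9 SF3 genes were lower (medians -0.11 and -0.11). In LNCaP 8 of 11 SRSF genes were higher (median 0.10). None of these genes passed the test without the block.

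Of the members with the smallest p, SNRPC (ENSG00000124562, chromosome 6, 34757505 to 34773857, plus strand) stood at 187, 137 and 182 CPM in 22Rv1 siCtrl and 110 and 131 CPM in siMED12. The groups did not overlap, and its effect was -0.50 ± 0.17 (adjusted p = 0.143). Same-numbered replicates deviated together in these libraries, and in a fit with the replicate number as a block SNRPC passed, at -0.62 ± 0.16 (adjusted p = 0.0188), when 2.95% of all genes did. Without the 2 libraries that stood apart, which left only siMED12 replicate 1 in 22Rv1, its effect was -0.62. In LNCaP its siMED12 level was 102 ± 13.3 CPM against 112 ± 8.04 CPM, and in PC3 214 ± 10.0 against 205 ± 10.7 CPM. The difference between its effects in PC3 and 22Rv1 was 0.57 ± 0.23 (adjusted p = 0.439).

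HNRNPH3 (ENSG00000096746, chromosome 10, 68331174 to 68343193, plus strand), another relative of HNRNPH1, had the smallest p for the mean of the lines. It stood at 475, 355 and 412 CPM in PC3 siCtrl and 342 and 276 CPM in siMED12. In 22Rv1 it was at 237, 244 and 236 CPM against 194 and 218 CPM, and in LNCaP at 360, 339 and 390 CPM against 332, 299 and 331 CPM. Every siMED12 library lay below every siCtrl library of its line in all 3 lines. The gene was chosen by its p in these same libraries. Of all genes, 12.6% had groups apart in LNCaP, 26.6% in 22Rv1 and 20.7% in PC3, in either direction. The share apart in all 3 lines was not counted. The effect in PC3 was -0.41 ± 0.14 (adjusted p = 0.891; -0.27 without PC3 siMED12 replicate 3) and the mean effect -0.27 ± 0.08 (adjusted p = 0.216). In the fit with the replicate block the mean effect was -0.30 ± 0.07 (adjusted p = 0.0275), when 0.937% of all genes passed. Without the 2 libraries that stood apart, which left only siMED12 replicate 1 in 22Rv1 and in PC3, the mean effect was -0.25.

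HNRNPH1 had effects of unlike sign. In 22Rv1 it was at 413, 428 and 438 CPM in siCtrl and at 322 and 333 CPM in siMED12, with no overlap (-0.38 ± 0.15, adjusted p = 0.254). In PC3 it was at 86.4, 109 and 150 CPM and at 165 and 141 CPM, which overlapped (0.43 ± 0.19, adjusted p = 0.974). Without PC3 siCtrl replicate 1 the PC3 effect was 0.27. The difference between the 2 effects was 0.81 ± 0.24 (adjusted p = 0.22), the smallest p of any member for a difference between lines. In these differences 0 members were called without or with the block. Without it, 0.189% of all genes were called between 22Rv1 and LNCaP, 0.0284% between PC3 and LNCaP and 0.0946% between PC3 and 22Rv1. With it, the shares were 0.672%, 0.123% and 0.691%. The other members with the smallest p were SRSF8 (0.62 ± 0.23) and SRSF2 (-0.58 ± 0.21) for 22Rv1 against LNCaP, U2AF1 (-0.74 ± 0.27) and HNRNPH1 (0.46 ± 0.23) for PC3 against LNCaP, and PRPF6 (-0.73 ± 0.30), a tri-snRNP bridge, for PC3 against 22Rv1. For PC3 against LNCaP, U2AF1 was at -0.45 without PC3 siMED12 replicate 1 and HNRNPH1 at 0.29 without PC3 siCtrl replicate 1.

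PRPF40B (ENSG00000110844, chromosome 12, 49568218 to 49644666, plus strand) had the largest effect, 1.30 ± 0.42 in 22Rv1 (adjusted p = 0.124), from 9.11, 10.0 and 7.70 CPM in siCtrl to 25.4 and 18.0 CPM in siMED12. These groups did not overlap, but the gene is scarce and its siMED12 level stayed below that of every LNCaP library. SRSF8 was at 69.0, 75.2 and 61.6 CPM in 22Rv1 siCtrl and at 103 and 88.5 CPM in siMED12, and did not pass the test (0.49 ± 0.18, adjusted p = 0.212). In LNCaP the smallest p belonged to SRSF4, an SR protein, at 81.2, 73.0 and 84.8 CPM in siCtrl and 60.1, 33.4 and 59.8 CPM in siMED12 (-0.64 ± 0.22, adjusted p = 0.386). Without LNCaP siMED12 replicate 2 the SRSF4 effect was -0.41. SNRPA1, encoding U2 A′, had an effect of -0.47 ± 0.21 there (-0.25 without that library), SRSF5 one of 0.37 ± 0.17 and SNRPD3 one of 0.81 ± 0.32, each with an adjusted p above 0.05. SNRPA1 shares exon sequence with PCSK6 on the same strand.

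In PC3 U2AF1 had an effect of -0.48 ± 0.20 (adjusted p = 0.96), with siCtrl at 101, 121 and 117 CPM and siMED12 at 67.3 and 99.5 CPM, and HNRNPM one of 0.31. Without PC3 siMED12 replicate 1 the U2AF1 effect was -0.18 and that of HNRNPM 0.14, and without PC3 siMED12 replicate 3 they were -0.75 and 0.43. For the mean of the lines SF3A2, a subunit of the U2 particle, had an effect of -0.58 ± 0.22 (adjusted p = 0.397), with 11.2 ± 4.67 CPM in PC3 siMED12 against 20.2 ± 4.14 CPM in siCtrl, PRPF40B one of 0.36 and SRSF6 one of 0.16. Without PC3 siMED12 replicate 1 the mean effect was 0.63 for PRPF40B and 0.058 for SRSF6, and without PC3 siMED12 replicate 3 it was 0.025 and 0.22. Among the factors fixed by name, HNRNPA1 had effects of -0.16 in LNCaP, -0.23 in 22Rv1 and -0.06 in PC3, and KHDRBS1 of -0.09, -0.28 and -0.10. SRSF1, U2AF2, HNRNPL and SF3B2 had effects between -0.43 (U2AF2 in 22Rv1) and 0.22 (U2AF2 in PC3) in the 3 lines, and none passed.

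Other genes of the splicing machinery, in 4 lists that share no member with the families, gave the same count without the block. They were 55 tested genes of the core spliceosome outside the families, 22 kinases of SR proteins and SR-related proteins, 34 other regulators of alternative splicing and 19 genes of the SMN complex and snRNP assembly. Without the block none of these 130 genes was called for siMED12 in any line. Of all tested genes, 0.416% were called in LNCaP, 1.84% in 22Rv1 and 0% in PC3. Calls of the 130 genes in the fit with the block are not given here. In 22Rv1 17 of the 22 SR kinases and SR-related genes were lower, with a median of -0.28 beside 0.01 over all genes, and the smallest adjusted p was 0.0512.

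Between the siCtrl groups 47 of the 130 were called between 22Rv1 and LNCaP (32 higher, 15 lower), or 36.2% against 43.2% of all genes. Between PC3 and LNCaP 56 were called (31 higher, 25 lower), or 43.1% against 54.7%, and between PC3 and 22Rv1 56 (19 higher, 37 lower), or 43.1% against 54.9%. Each share was below that of all genes. SRRM4, a neural splicing activator, was at 23.4, 36.8 and 19.2 CPM in 22Rv1 siCtrl, at most 1.43 CPM in LNCaP siCtrl and at 0 in PC3. MBNL2, a splicing regulator known from myotonic dystrophy, was at 25.8, 14.7 and 14.4 CPM in PC3 siCtrl and at 0 in the siCtrl libraries of both other lines. EFTUD2, a GTPase of the U5 particle, was the highest core gene in PC3 against LNCaP (1.36), and SNRNP48 of the minor spliceosome the lowest (-2.55).

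Promoter windows from RefSeq on GRCh38.p14, 250 bases before to 50 after a start, were found for 65 of the 75 coding members. The letters CCGGAAG, the core of sites bound by ETS factors, occurred on either strand in 22 of those 65 genes (33.8%), against 12.2% of all 27305 genes with a window. By family they occurred in 7 of 11 SNRP genes and 6 of 8 SF3 genes, and in 3 of 18 HNRNP genes. The E-box CACGTG, the site of MYC and other factors, occurred in 8 of 65 (12.3%) against 8.77% of all genes, 7 of the 8 being HNRNP genes. Of the other motifs counted, the GC box GGGCGG occurred in 44 of 65 (67.7%) against 48.3% of all genes. The TATA box TATAAA occurred in 7 of 65 (10.8%) against 13.99%. The 27305 genes were not limited to tested genes or matched to the members in level. Whether the higher share with CCGGAAG is particular to splicing genes was therefore not tested. A match describes letters in a window and not binding. 3 stretches before a RefSeq start are shown. SNRPC and HNRNPH3 were chosen for their calls under the block, and SNRPB as one of the Sm genes that differed between lines. Capitals mark the motif, in SNRPC as the palindrome of both strands. The stretches of HNRNPH3 and SNRPB touch an annotated exon. That of HNRNPH3 lies inside the gene coordinates given above, before a later start of the gene.
SNRPC, chr6:34757261-34757330, plus strand: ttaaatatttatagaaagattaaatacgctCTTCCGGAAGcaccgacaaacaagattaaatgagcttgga
HNRNPH3, chr10:68331631-68331660, plus strand: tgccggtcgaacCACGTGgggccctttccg
SNRPB, chr20:2470813-2470841, minus strand: agtgagctggaCCGGAAGtaggtttctac
The median siMED12 effect in 22Rv1 was -0.02 for the 8 members with the E-box and -0.12 for the 57 without, and -0.10 for the 22 with CCGGAAG and -0.11 for the 43 without it. In LNCaP the latter medians were -0.10 and 0.09. No test of these differences was made.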

How the data were processed

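Spheroid RNA of LNCaP, 22Rv1 and PC3 cells was measured in 16 libraries of 6 groups, assigned by their labels. The authors prepared BRB-seq 3′ tag libraries and, with STARsolo on Gencode Release 43 (GRCh38.p13), deposited raw counts per gene for 62703 genes and a table of log2 CPM made with edgeR, which was recomputed from the counts with the edgeR filter and TMM scaling and matched. Whether molecular identifiers were collapsed, multi-mapping reads kept or strand used is not given in the sources used here. p-values measure the spread between these libraries, which the study's methods call biological replicates in general terms and whose labels name no separate cultures. A count of 0 allows up to 3 counts, or 3.15 to 6.22 CPM, for counting error only.

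Members are the genes of the log2 CPM table whose names match the families. The members and lists were chosen with earlier results of these data known. Counts were fitted in R 4.3.3 with edgeR 4.0.16 (quasi-likelihood test, newer fit, TMM scaling, filter with a minimum count of 10 and minimum total of 15), 1 mean per group, and p-values were adjusted over 10566 genes by the Benjamini-Hochberg method with a threshold of 0.05. SE is the size of the log2 fold change over the square root of F. The script was tested on simulated data. Named genes were those with the smallest p of each sign per effect, the 5 largest differences of each sign between lines among called genes without overlap and with at least 20 CPM, the highest and lowest of each family, and genes fixed by name for known roles in splicing, and, in the other splicing lists, the largest differences between lines. Genes outside this rule were named after their values were seen. Coordinates came from Gencode 44. Values of some genes, 1 member among them, are not reported here.

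Replicate numbers were shared by the groups of a line. In all 7 pairs of same-numbered siCtrl and siMED12 libraries the deviations from the group mean correlated, at 0.135 to 0.300. Each library matched its own number best, so the numbers were taken to pair the libraries. Deviations within a group sum to 0, so the 7 matches are not independent of each other, and the labels do not state a pairing. Alternatives were RLE scaling, other filters, DESeq2 1.42.0, limma 3.58.1 on the deposited log2 CPM, the block, only the groups compared, leaving out each library, and, added after seeing the data, the legacy edgeR fit and leaving out 2 libraries.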

Additional observations from a re-analysis of the deposited data

How the results depend on the processing

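The number of members called for siMED12 was 0 in each of the 7 siMED12 comparisons under RLE scaling, 2 other filters, DESeq2, limma and the legacy fit. Only in the fit with the replicate block was it 1 in 22Rv1 (SNRPC) and 1 for the mean of the lines (HNRNPH3); the block changed no other call. Leaving out each library gave 0 to 0 members for siMED12 where each group kept 2 libraries or more. Between the siCtrl groups it gave 32 to 39 for 22Rv1 and LNCaP, 29 to 34 for PC3 and LNCaP, and 30 to 32 for PC3 and 22Rv1. The other settings gave 32 to 40, 30 to 34 and 28 to 33 there, the fit without the 2 libraries not counted. With at least 10 counts in every library, 17 of 33 members were higher in PC3 than in 22Rv1, against 13 of 33. RLE scaling moved the median of all genes by at most 0.034. Effects near 0 changed sign: in 22Rv1 SRSF1 was -0.050 with the block and -0.061 without the 2 libraries, SF3B2 -0.012 with the block and HNRNPL 0.10 without the 2 libraries; in PC3 HNRNPA1 was 0.015 with the block and SF3B1 0.11 without the 2 libraries. Leaving out each library gave, in LNCaP, SRSF1 -0.058 to 0.27, U2AF2 -0.51 to 0.11, HNRNPL -0.0032 to 0.19, SNRPN -0.031 to 0.34, SF3B1 -0.10 to 0.32 and KHDRBS1 -0.18 to 0.029; in 22Rv1, SRSF1 -0.13 to 0.27, HNRNPL -0.41 to 0.10, SF3B2 -0.044 to 0.15 and SF3B1 -0.25 to 0.31; in PC3, HNRNPA1 -0.12 to 0.018, SF3B1 -0.35 to 0.12, PRPF8 -0.14 to 0.40 and KHDRBS1 -0.21 to 0.029. Between siCtrl groups it gave SRSF1 -0.31 to 0.087 and SF3B2 -0.036 to 0.12 for 22Rv1 and LNCaP, and U2AF2 -0.038 to 0.23 and SF3B1 -0.040 to 0.13 for PC3 and 22Rv1. Named calls lost in at least 1 setting were HNRNPUP1, U2AF1, SF3B2 and PRPF8 between PC3 and 22Rv1, and U2AF1 and KHDRBS1 between PC3 and LNCaP. The cause was not tested. Depth limits the scarce members, such as PRPF40B and SNRPD3, with as few as 3 counts in a library.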
